A study of Caenorhabditis elegans with 6 samples.

Results

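The chemoreceptor genes described here belong to 5 families of the Str superfamily of Caenorhabditis elegans, named srh, str, sri, srd and srj. A gene was included when its WormBase symbol consists of one of these stems followed by digits and it had at least 10 unstranded counts in at least 2 of the 6 libraries. The annotation holds 580 protein-coding genes with such symbols, of which 31 met this rule, out of 46778 identifiers in the deposited tables. The rule therefore selected on the measured counts. A gene that reached 10 counts in a single group only, or in the groups where it is high only, was selected through that group, so counts and medians over the 31 genes describe them and are not evidence of a direction.

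RNA was sequenced from whole animals at L4, the final larval stage, in 3 groups of 2 libraries. UM10 animals carry aex-3p::alphasynA53T, in which the aex-3 promoter, active throughout the nervous system, drives human alpha-synuclein carrying A53T, a substitution found in inherited Parkinson's disease. UM10 was fed csgA(-) bacteria, which lack the main subunit of the curli fibre, or K12 BW25113, and wild-type N2 was fed K12 BW25113. UM10 is a single strain, N2 on csgA(-) was not analysed here, and no label says whether replicates came from separate cultures, so p-values measure only the spread between these libraries.

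Nematode chemoreceptors are seven-transmembrane G protein-coupled receptors. Many act in the cilia of the paired amphid and phasmid chemosensory neurons, where they detect odours, tastes and pheromones, and each gene is typically expressed in few cells. Signals pass from the receptors through G alpha subunits to guanylate cyclases and cyclic nucleotide-gated channels or to TRPV channels. RNA of single neurons is a small part of RNA from a whole animal, and in such bulk samples fewer cells of a type and less RNA per cell cannot be told apart.

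Titles were used to assign groups. For the 4 UM10 libraries the file names state the opposite food, so each statement on food, and each on UM10 csgA(-) or UM10 K12 alone, would exchange these labels if the file names were right. The comparison of both UM10 groups with N2 does not depend on this. Counts assigned to genes were 22657727 to 23532382 per library. N2 replicate 1 stood apart in composition: its TMM scaling factor was 0.61, against 1.01 to 1.2 in the other libraries, and results that rest on it are given without it. Intervals given for counts and ratios cover counting error only.

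Detection was sparse in all 5 families. Of the 580 genes, 192 had no count in any library and 357 had counts without meeting the rule. The sri family had 7 of 61 genes detected (11.5%) and the srd family 6 of 67 (8.96%). The srj family had 2 of 39 (5.13%), the str family 8 of 193 (4.15%) and the srh family, with the most genes, 8 of 220 (3.64%). Across the 5 families the share was 5.34%, against 79.4% of 18416 protein-coding genes outside the chemoreceptor families. The Sra superfamily had 8.87% of its genes detected, the Srg superfamily 3.88% and the srbc, srsx, srw, srz and srr families together 5.19%. At 20 counts in place of 10, 15 of the 31 genes were still detected.

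By chromosome, 15 detected genes lie on V, which holds 426 of the 580 family genes, 8 lie on II, 4 on I, 3 on IV and 1 on III, while none of the 21 family genes on X was detected. On I, 4 of 13 family genes were detected, and on V 3.52%. Exons of another annotated gene overlap 7 of the 31 detected genes and 92 of the 549 others, and reads were counted without regard to strand. The exon-union length of detected genes had a median of 1193 bases, against 1032 bases for the others.

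The genes closest to the threshold had few reads. Just inside it were sri-21, srh-239 and srd-27, each with 10 counts in its second-highest library. Just outside were str-262 and srh-74 with 9 and srd-7 with 8. The srd-7 gene had 1 and 3 counts in UM10 csgA(-), 3 and 6 in UM10 K12, and 8 and 64 in N2, so its reads came mostly from N2 replicate 2.

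Receptors known from single identified neurons were nearly or wholly without reads. No library had a count of str-217 or srh-142, receptors of the ADL and ADF neurons, of sri-14, which is expressed in ASH, or of srd-1. The whole series held 1 count each of str-1, the AWB marker, and str-2, the marker of the asymmetric AWC neurons. There were 4 counts of str-3, which marks ASI, and 4 of srh-234, an ADL gene whose expression follows feeding state. The AWA gene str-44 had 12 counts in all. Of the 12 counts of srh-220, another ADL receptor, 11 were in UM10 csgA(-) replicate 2.

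Levels of the 31 genes are given as CPM, the count relative to the library's TMM-scaled total of assigned reads, and levels of different genes are compared as RPKM, which divides CPM by the exon-union length in kilobases. The median member had a mean of 0.458 RPKM over the 6 libraries, against a median of 9.20 RPKM over 14600 protein-coding genes in the fit, and only srh-237 exceeded that value. On this per-length scale srh-237 had 10.2 RPKM, str-176 8.12 and sri-40 4.94. Next came str-168 with 1.56 RPKM, srd-64 with 1.51, srh-70 with 1.32, srd-32 with 1.28, srj-14 with 1.25, srd-53 with 1.21 and sri-29 with 0.895. The lowest had 0.146 RPKM.

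**Figure D1:**
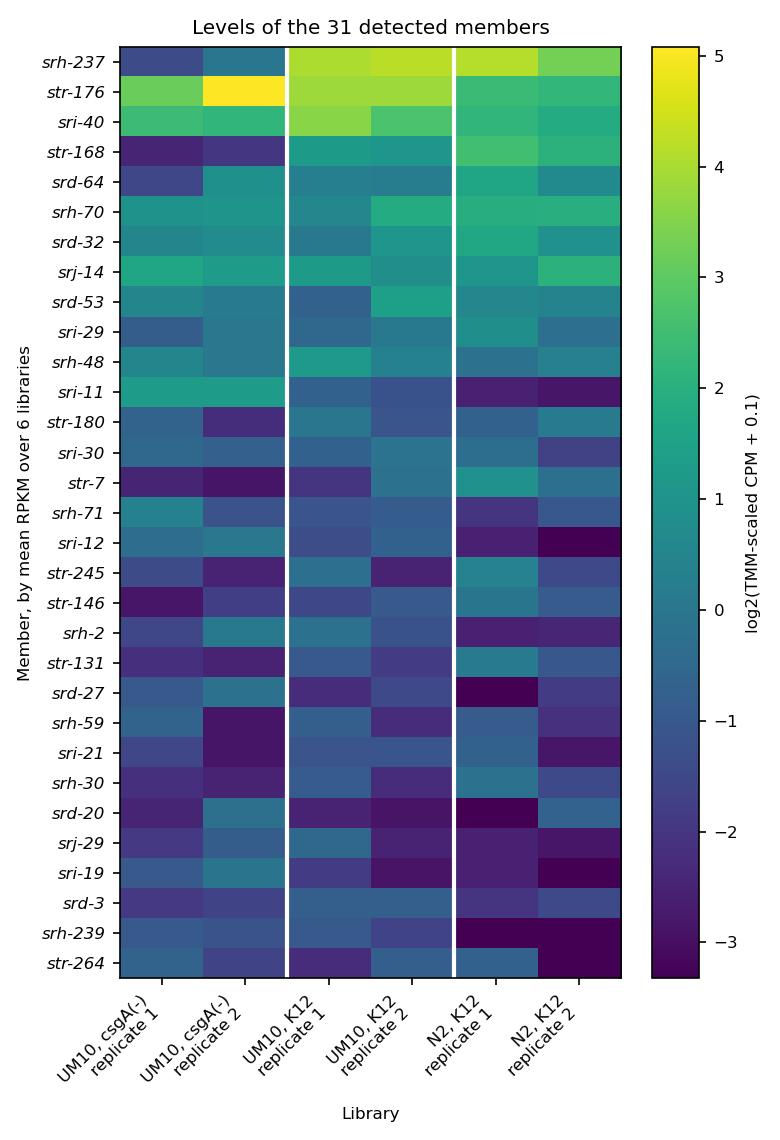
Level of each of the 31 detected genes (rows, by mean RPKM over the 6 libraries) in each library (columns), as log2 of TMM-scaled CPM plus 0.1. The 3 highest rows are srh-237, str-176 and sri-40. The srh-237 and str-168 rows are dark in UM10 csgA(-), and the sri-11 row is bright there.

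The 3 highest genes made up much of all member reads: 43% and 66.1% in UM10 csgA(-), 68.5% and 64.6% in UM10 K12, and 47.1% and 43.3% in N2. The summed level of the 31 genes was 46.3 ± 18.2 CPM in UM10 csgA(-), 61.3 ± 1.14 CPM in UM10 K12 and 49.5 ± 11.6 CPM in N2 (SD, n = 2 each). Libraries of the UM10 csgA(-) and N2 groups overlapped in this sum. Without the 3 highest genes the sum was 19.1 and 20.1 CPM in UM10 csgA(-), 19.6 and 21.4 in UM10 K12, and 30.6 and 23.4 in N2, so both N2 libraries were then above the 4 UM10 libraries. N2 replicate 1 was the higher of them.

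Of the 31 genes, 12 reached 10 counts in at least 1 library of every group. Another 8 reached it in both UM10 groups and not in N2, namely srh-2, srh-59, srh-71, srh-239, str-264, sri-11, sri-12 and srj-29. A further 6 reached it in UM10 K12 and N2 and not in UM10 csgA(-): srh-30, str-7, str-131, str-146, str-168 and str-245. The remaining genes were sri-19, sri-21, srd-3 and srd-27, which reached it in 1 group, and srd-20. This cut is on raw counts, so N2 replicate 1, with its low scaling factor, needed a higher CPM to reach it. In CPM the N2 and UM10 libraries overlapped for srh-59, srh-71 and str-264. For example, srh-59 had 0.534 and 0.0384 CPM in UM10 csgA(-), 0.477 and 0.11 in UM10 K12, and 0.435 and 0.13 in N2. The share of all genes with each pattern was not computed. The 4 genes sri-19, sri-21, srd-27 and srh-239 had too few counts to enter the fit, which left 27 tested.

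In UM10 on csgA(-) against N2 on K12, which combines strain and food, 6 of the 27 tested genes passed an adjusted p of 0.05 in the quasi-likelihood test of edgeR, Benjamini-Hochberg adjusted over 15331 genes. Of all genes tested, 9.05% passed, 3.95% as higher and 5.11% as lower. With upper-quartile scaling 32.9% of all calls were higher, against 43.6% with TMM. The 3 lower genes were srh-237, str-168 and str-7, and the 3 higher genes were sri-11, sri-12 and str-176. Leaving out N2 replicate 1 left 2 of these calls (157 of all genes, against 1388 with it), and leaving out UM10 csgA(-) replicate 2 left 3.

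The receptor gene srh-237 (WBGene00005444, chromosome V 17090379 to 17091714 in WBcel235, 5 exons) had the highest level per length. It had 7 and 23 counts in UM10 csgA(-), 444 and 496 in UM10 K12, and 241 and 227 in N2. As CPM this was 0.288 and 0.883 in UM10 csgA(-), 16.3 and 18.3 in UM10 K12, and 17.45 and 9.81 in N2. The UM10 csgA(-) libraries lay far below the other 4, and of the N2 libraries replicate 1 lay between the UM10 K12 values and replicate 2 below them. Against N2, its level fell in UM10 csgA(-) by 4.52 on the log2 scale (SE 0.63, edgeR adjusted p = 0.0062), a 21.3-fold lower pooled count after scaling (exact 95% interval 14.7 to 31.9).

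A member of the str family, str-168 (WBGene00006212, chromosome IV 4938964 to 4941523, 8 exons), had 2 and 4 counts in UM10 csgA(-), 63 and 55 in UM10 K12, and 79 and 95 in N2. The 3 groups did not overlap in CPM, with means of 0.118 ± 0.0505 in UM10 csgA(-), 2.17 ± 0.201 in UM10 K12 and 4.91 ± 1.14 in N2 (SD, n = 2 each). It fell in UM10 csgA(-) against N2 by 5.31 on the log2 scale (SE 0.71, edgeR adjusted p = 0.0062), a pooled count 39.6-fold lower (17.8 to 109). Both srh-237 and str-168 passed in this comparison under all 14 alternatives that kept the food labels of the titles. With the foods of the file names neither passed, and srh-237 was at 0.34 and str-168 at -1.18.

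Another str gene, str-7 (WBGene00006075, chromosome V 16097824 to 16099541, 5 exons), had 2 and 1 counts in UM10 csgA(-), 4 and 21 in UM10 K12, and 25 and 17 in N2. The UM10 csgA(-) libraries were the lowest, while UM10 K12 replicate 2, at 0.774 CPM, was above N2 replicate 2, at 0.735 CPM. Both str-7 and str-168 reached 10 counts in N2 and UM10 K12 only, so they were selected through the groups where they are high. Their lower level in UM10 csgA(-) is therefore not evidence of a direction. The pooled count of str-7 was 19.1-fold lower in UM10 csgA(-) than in N2 (6.10 to 96.3), and the fitted log2 fold change was -4.27 (SE 1.10, edgeR adjusted p = 0.0355). The call was lost without N2 replicate 1 (edgeR adjusted p = 0.204), UM10 csgA(-) replicate 1 (0.114) or UM10 csgA(-) replicate 2 (0.104).

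Among the higher genes, sri-11 (WBGene00005523, chromosome I 11694577 to 11697943, minus strand, 8 exons) had 59 and 61 counts in UM10 csgA(-), 14 and 9 in UM10 K12, and 1 and 1 in N2. Every UM10 csgA(-) library was above every UM10 K12 library, and these were above both N2 libraries. The sri-11 gene reached 10 counts in UM10 libraries only, so it was selected through the groups where it is high. Its excess over N2, in any comparison, is therefore not evidence of a direction. The pooled count in UM10 csgA(-) was 44-fold that in N2 (11.9 to 367), and the fitted log2 fold change was 5.31 (SE 0.88, edgeR adjusted p = 0.0101). It was lost only without N2 replicate 1 (edgeR adjusted p = 0.0648) among the 14 alternatives. Its exons overlap T22H2.4 on the same strand, which had a log2 fold change of -0.06 (edgeR adjusted p = 0.966).

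The adjacent gene sri-12 (WBGene00005524, chromosome I 11699169 to 11701178, plus strand, 7 exons) starts 1225 bases from sri-11. It had 17 and 24 counts in UM10 csgA(-), 8 and 14 in UM10 K12, and 1 and 0 in N2. All UM10 libraries were above both N2 libraries. Like sri-11, it reached 10 counts in UM10 libraries only, so the same limit applies to its excess over N2. The pooled count in UM10 csgA(-) was 30.1-fold that in N2, an estimate that rests on 1 read in N2 and has an interval of 5.10 to 1216. Its fitted log2 fold change was 4.6 (SE 1.18, edgeR adjusted p = 0.0352), and the call was lost on leaving out any 1 of the 6 libraries (edgeR adjusted p = 0.0734 to 0.132).

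The str-176 gene (WBGene00006220, chromosome IV 8460999 to 8463816, 8 exons) had 215 and 878 counts in UM10 csgA(-), 389 and 390 in UM10 K12, and 72 and 107 in N2. Its levels were 8.83 and 33.7 CPM in UM10 csgA(-), 14.3 and 14.4 in UM10 K12, and 5.21 and 4.63 in N2. The 4 UM10 libraries were above both N2 libraries, and the UM10 csgA(-) pair lay on either side of UM10 K12. The log2 fold change in UM10 csgA(-) against N2 was 2.11 (SE 0.59, edgeR adjusted p = 0.0466). It passed under 6 of 14 alternatives: without UM10 csgA(-) replicate 2 it was 0.83 (edgeR adjusted p = 0.332), and the call was also lost without N2 replicate 1 (0.251), N2 replicate 2 (0.136), UM10 K12 replicate 1 (0.0776) or UM10 K12 replicate 2 (0.0757), with DESeq2's size factors (0.0525), with upper-quartile factors (0.0648) and with only the libraries compared (0.0802).

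**Figure D2:**
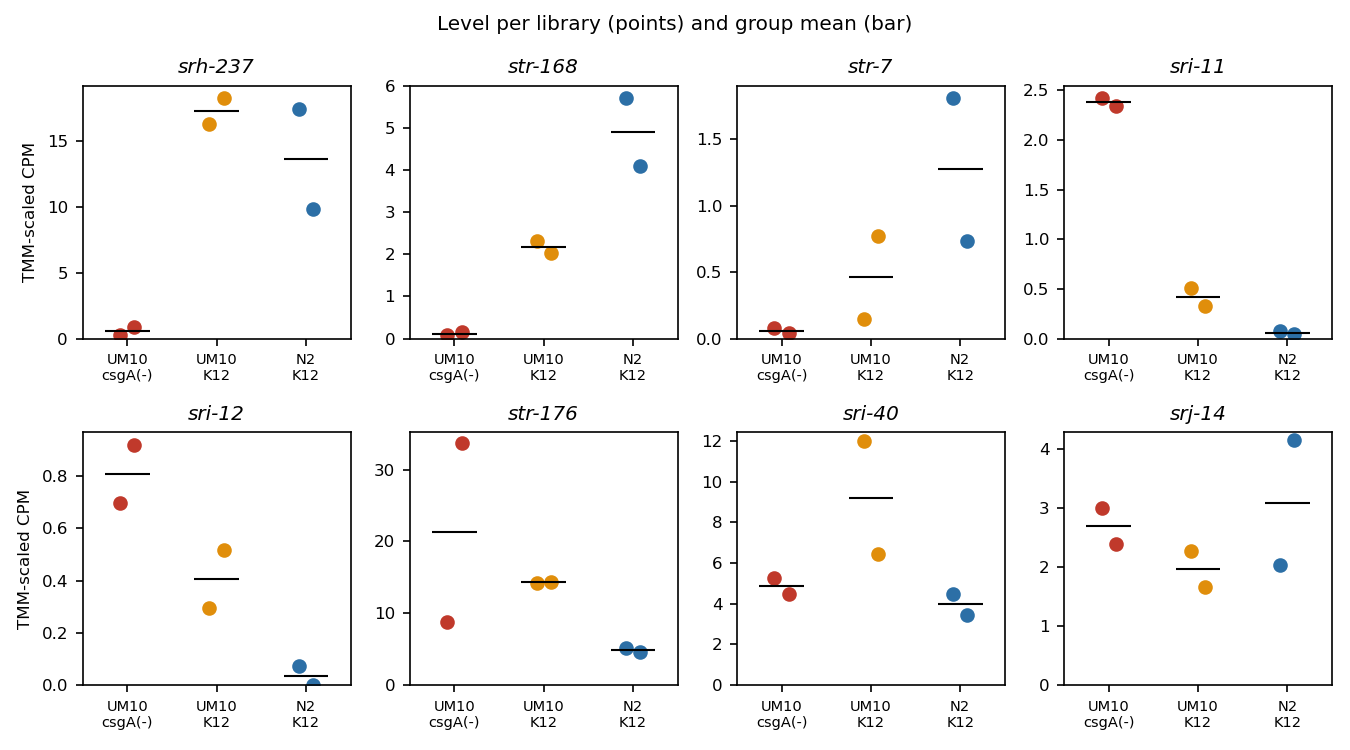
TMM-scaled CPM (vertical axes, each starting at 0) of 8 detected genes in the 6 libraries (points) with group means (bars), for UM10 csgA(-), UM10 K12 and N2 K12 from left to right. The UM10 csgA(-) points of srh-237, str-168 and str-7 lie near 0, those of sri-11 at 2.42 and 2.34 CPM, and the groups of srj-14 overlap.

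In UM10 against N2, both on K12, none of the 27 tested genes passed the quasi-likelihood test of edgeR (Benjamini-Hochberg), and 2.75% of all genes did. Unadjusted p-values were under 0.05 for 5 genes, all higher, beside 19.1% of all genes (12% as higher), and DESeq2 called 0. The 3 genes with the smallest p were sri-11, sri-12 and str-176. For sri-11 the log2 fold change was 2.83 (SE 0.93, edgeR adjusted p = 0.133), with 14 and 9 counts in UM10 K12 against 1 and 1 in N2. The pooled sri-12 count of UM10 K12 was 22 reads against 1 in N2, with a fitted log2 fold change of 3.61 (edgeR adjusted p = 0.144). For str-176 the log2 fold change was 1.54 (edgeR adjusted p = 0.182), the N2 libraries being lower.

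The average of both UM10 groups differed from N2 in 5 of the 27 genes by edgeR's quasi-likelihood test, with 10.3% of all genes passing, 5.07% as higher and 5.25% as lower. With upper-quartile scaling 36.9% of these calls were higher, against 49.1% with TMM. The genes str-168, srh-237 and str-7 were lower, with log2 fold changes of -3.24, -2.09 and -2.85 (edgeR adjusted p = 0.00591, 0.0188 and 0.0439). The genes sri-11 and sri-12 were higher, at 4.07 and 4.11 (edgeR adjusted p = 0.0165 and 0.0429). For srh-237 this average joins a UM10 csgA(-) group far below N2 with a UM10 K12 group whose mean was above it, 17.3 ± 1.41 CPM against 13.6 ± 5.40 CPM in N2 (SD, n = 2 each). The str-176 change was 1.83 (edgeR adjusted p = 0.0523).

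Each of these pooled calls was lost on leaving out at least 1 library. That step leaves 1 library in a group, and the number of calls over all genes changed with it. No call was left without N2 replicate 1, 2 without N2 replicate 2, 1 without UM10 K12 replicate 1, 2 without UM10 K12 replicate 2 and 3 without UM10 csgA(-) replicate 2. The str-168 call was lost without N2 replicate 1 alone (edgeR adjusted p = 0.0587). The srh-237 call was lost without N2 replicate 1 (0.178), UM10 K12 replicate 1 (0.0691) or UM10 K12 replicate 2 (0.0523), and sri-11 without N2 replicate 1 (0.109), N2 replicate 2 (0.0673) or UM10 K12 replicate 1 (0.0653). Both str-7 (0.0524 to 0.33) and sri-12 (0.0647 to 0.19) were lost on leaving out any 1 library. The comparisons with N2 share the N2 libraries, so their values are not independent of each other.

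In UM10, csgA(-) against K12 food gave no call among the 27 genes or among all 15331 in edgeR's quasi-likelihood test, which is 0% of genes tested. Unadjusted p-values were under 0.05 for 4 of the 27, 1 higher and 3 lower, beside 9.92% of all genes (5.27% higher, 4.65% lower). DESeq2 called 2 of the 27 and 241 of all genes. Other alternatives also gave calls among the receptor genes: 2 without a filter on low counts, 2 with the replicate block and 1 in the second stranded column. The 3 smallest p belonged to srh-237, str-168 and sri-11. For srh-237, with 7 and 23 counts on csgA(-) and 444 and 496 on K12, the log2 fold change was -4.86 (SE 0.64, edgeR adjusted p = 0.0647). It passed without UM10 csgA(-) replicate 2, at -5.93 (edgeR adjusted p = 0.0128), and in DESeq2 (adjusted p = 2.2e-12), and across the 14 alternatives the adjusted p reached 0.251.

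For str-168, with 2 and 4 counts on csgA(-) and 63 and 55 on K12, the log2 fold change was -4.13 (SE 0.70, edgeR adjusted p = 0.128), and in DESeq2 it passed (adjusted p = 0.000266). Across the alternatives its adjusted p reached 0.348. For sri-11, with 59 and 61 counts on csgA(-) and 14 and 9 on K12, it was 2.48 (SE 0.67, edgeR adjusted p = 0.25). The csgA(-) libraries were both above the K12 libraries in 4 of the 27 genes, beside 21.7% of all genes, and both below them in 7, beside 19%, and these 11 include srh-237, str-168 and sri-11. If the file names were right, the signs in this comparison would turn, and srh-237 would be lower on K12.

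**Figure D3:**
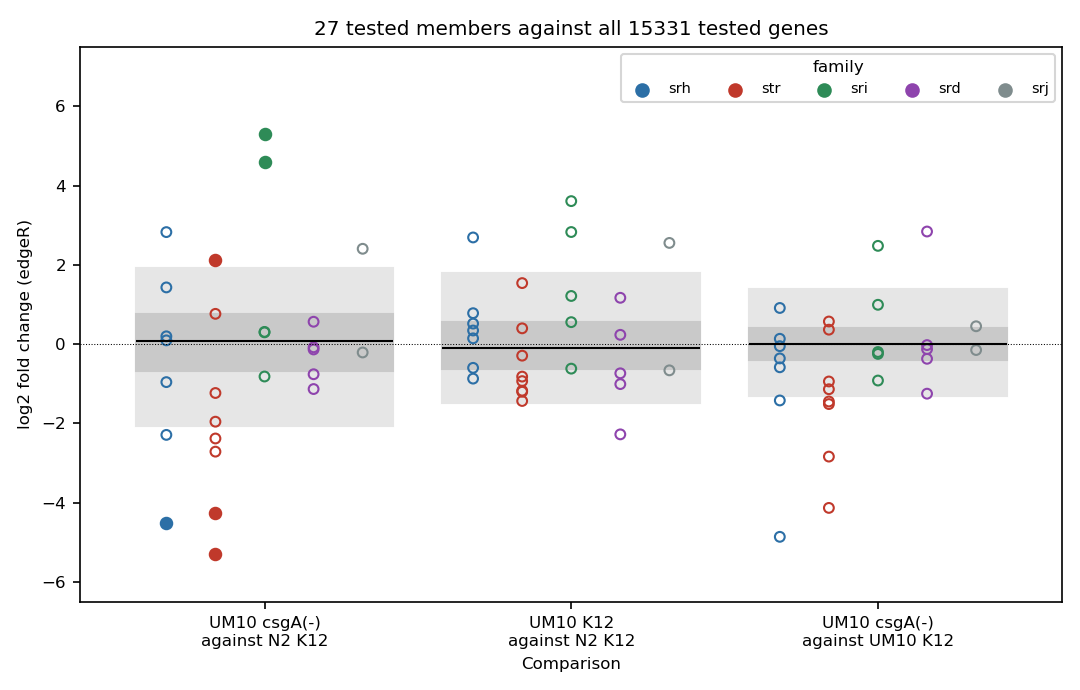
The edgeR log2 fold change (vertical axis) of each of the 27 tested genes in 3 comparisons (horizontal axis), coloured by family, with filled points for an adjusted p under 0.05. Grey bands hold the middle 50% and 90% of all 15331 genes and the line is their median. Filled points are the 3 higher and 3 lower genes of UM10 csgA(-) against N2, and the other comparisons have none.

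By family, the str genes lay mostly below N2 in UM10 csgA(-): 6 of 8 had a negative log2 fold change, with a median of -2.17, and of these str-168 and str-7 passed the test. Of the 6, str-7, str-131, str-146, str-168 and str-245 reached 10 counts in N2 and UM10 K12 only, so they were selected through the groups where they are high and no direction of the family can be read from this count, nor from its contrast with the 52.7% of all genes above 0. The other 4 negative ones did not, among them str-131 at -2.71 (edgeR adjusted p = 0.0915) and str-146 at -2.38 (edgeR adjusted p = 0.127). In the sri family 4 of 5 were positive with a median of 0.31. The srh family had 4 of 7 positive and the srd family 1 of 5. Over all 27 genes the median was -0.13 in UM10 csgA(-) against N2, 0.15 in UM10 K12 against N2 and -0.44 for both UM10 groups, against medians of 0.07, -0.09 and -0.04 over all genes tested. Between foods the members' median was -0.25 and that of all genes 0.00.

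Several of the better-measured genes differed little between libraries. The highest and lowest CPM differed by 2.5-fold in srj-14, 2.67-fold in srh-70 and 2.81-fold in srh-48, and by 69.6-fold in str-168, 63.5-fold in srh-237 and 56.1-fold in sri-11. The srj-14 gene had 3.00 and 2.38 CPM in UM10 csgA(-), 2.27 and 1.66 in UM10 K12, and 2.03 and 4.15 in N2, so the groups overlapped. Its log2 fold change was -0.21 in UM10 csgA(-) against N2 (edgeR adjusted p = 0.839). The sri-40 gene had 5.26 and 4.49 CPM in UM10 csgA(-), 12 and 6.45 in UM10 K12, and 4.49 and 3.46 in N2. UM10 K12 was the highest group, yet its log2 fold change against N2 was 1.22 (SE 0.51, edgeR adjusted p = 0.226).

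Among genes with few reads, srh-2 had 6 and 25 counts in UM10 csgA(-), 21 and 9 in UM10 K12, and 1 and 2 in N2. The N2 libraries were lowest, and the pooled ratio to N2 was 7.58 (2.36 to 38.7) in UM10 csgA(-) and 6.79 (2.11 to 34.8) in UM10 K12, neither of which passed the test (edgeR adjusted p = 0.111 and 0.204). The srh-239 gene had 10 and 9 counts in UM10 csgA(-), 11 and 6 in UM10 K12 and none in N2. With a floor of 3 counts set for the N2 group, its ratio to N2 was 4.64 in UM10 csgA(-) and 3.85 in UM10 K12, without an interval for counting error. Both srh-2 and srh-239 reached 10 counts in UM10 libraries only, so their excess over N2 is not evidence of a direction. The srh-239 gene was not in the fit, so its differences carry no test.

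Some detected genes lie close to each other, and whether such genes move alike was not tested. The pair sri-11 and sri-12 on I was called higher together, as above. The pair sri-29 and sri-30 on II lies 59 bases apart and had log2 fold changes of -0.82 and 0.31 in UM10 csgA(-) against N2. With SE of 0.74 and 0.81, neither passed (edgeR adjusted p = 0.494 and 0.832), so the difference in sign cannot be read. The pair str-131 and str-146 on V lies 11652 bases apart. Both were lower in that comparison, at -2.71 and -2.38, and neither passed (edgeR adjusted p = 0.0915 and 0.127).

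Genes around the 6 called receptors were then examined, a choice made after their values were seen. Both direct neighbours of srh-237 fell in UM10 csgA(-) against N2. T05E12.6, 936 bases away, had 40.2 and 9.21 CPM in UM10 csgA(-), 269 and 295.8 in UM10 K12, and 544.9 and 328.3 in N2, a log2 fold change of -4.14 (edgeR adjusted p = 0.0107). ZK218.1, 847 bases away on the other side, had a log2 fold change of -4.40 (edgeR adjusted p = 0.0143). Without N2 replicate 1 neither call held (edgeR adjusted p = 0.0569 for T05E12.6 and 0.0648 for ZK218.1), and without UM10 csgA(-) replicate 1 the ZK218.1 call did not (0.0716). Further out, T05E12.3 and T05E12.10 had 0.96 and 1.85 and were not called in UM10 csgA(-) against N2. In UM10 K12 against N2, T05E12.3 was called higher at 3.27 (edgeR adjusted p = 0.0479).

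Of the 4 tested genes within 20 kb of str-7, 3 were called lower in UM10 csgA(-) against N2. These were F22B8.7 at -1.74 (edgeR adjusted p = 0.0314), cth-1, a cystathionine gamma-lyase gene, at -4.74 (edgeR adjusted p = 0.0062), and argk-1, an arginine kinase gene, at -8.20 (edgeR adjusted p = 0.000836). The argk-1 gene had 0.205 and 0.115 CPM in UM10 csgA(-), 1.39 and 2.58 in UM10 K12, and 67.4 and 29.6 in N2. The cth-1 and argk-1 calls held with each library left out in turn. The F22B8.7 call was lost without N2 replicate 1 (edgeR adjusted p = 0.164), UM10 csgA(-) replicate 1 (0.14) or UM10 csgA(-) replicate 2 (0.0543). In UM10 K12 against N2, ant-1.4, 690 bases from str-176, was called lower at -2.07 (edgeR adjusted p = 0.0401). In UM10 csgA(-) against N2, none of 8 tested genes around str-176 was called, and the 1 tested gene near str-168 was not. Beside sri-12, pgrn-1, the progranulin gene, was lower at -1.77 (edgeR adjusted p = 0.0366), opposite to sri-11 and sri-12, a call that held with N2 replicate 2 left out but with none of the other 5 libraries left out (edgeR adjusted p = 0.0555 to 0.19). Whether neighbouring genes share a part in these differences was not tested.

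**Figure D4:**
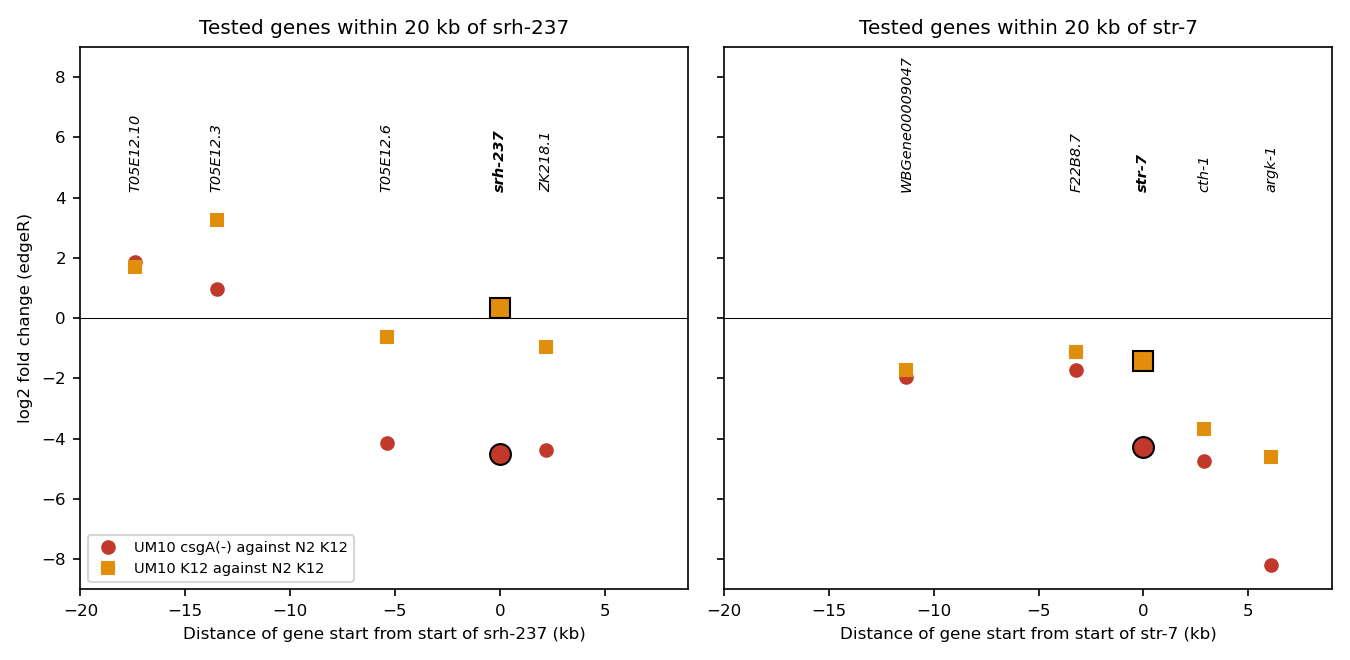
The edgeR log2 fold change (vertical axis) of the tested genes within 20 kb of srh-237 (left) and str-7 (right) by the distance of their starts in kb (horizontal axis), for UM10 csgA(-) and UM10 K12, each against N2 K12; large outlined points are the receptor genes. Beside srh-237, T05E12.6 and ZK218.1 are at -4.14 and -4.40 in UM10 csgA(-), and beside str-7, cth-1 and argk-1 are at -4.74 and -8.20.

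Genes of the neurons and pathway in which chemoreceptors act were read from lists chosen with earlier results of these data known. Of 31 ciliated sensory neuron genes, which encode intraflagellar transport and basal body proteins, 30 were tested and 0 were called in any comparison by edgeR's quasi-likelihood test. DESeq2 called 0 as well. In both UM10 groups against N2, 0 of them had an unadjusted p under 0.05 and their median log2 fold change was -0.07. Their summed level was 52.8 and 74.5 CPM in UM10 csgA(-), 58.7 and 81.5 in UM10 K12, and 63.2 and 70.6 in N2, so the groups overlapped. Of 19 pan-neuronal genes 0 were called in edgeR or DESeq2, beside the same shares of all genes, and 1 had an unadjusted p under 0.05 in edgeR. In both UM10 groups against N2, 15 of them had a negative log2 fold change (48.2% of all genes were above 0), and their median was -0.24. The separate groups differed. In UM10 csgA(-) against N2, 16 were negative with a median of -0.31, beside 0.07 over all genes. In UM10 K12 against N2, 10 were negative and 9 positive with a median of -0.005, beside -0.09 over all genes.

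Of 28 chemosensory signalling genes, 22 were tested, and in both UM10 groups against N2 2 were called, both lower, a share near the 10.3% of all genes called. The gpa-6 gene encodes a G alpha subunit of chemosensory neurons. It had 0.205 and 0.192 CPM in UM10 csgA(-), 0.587 and 0.81 in UM10 K12, and 1.67 and 1.69 in N2. The arrestin gene arr-1 had 11.6 and 18.1 CPM in UM10 csgA(-), 16.2 and 16.7 in UM10 K12, and 46.6 and 34.9 in N2. Their log2 fold changes were -2.15 and -1.38 (edgeR adjusted p = 0.0348 and 0.0264), and in both genes the N2 libraries were the highest. The gpa-6 call was lost on leaving out any 1 library (0.0593 to 0.148), and the arr-1 call without N2 replicate 1 (0.181), UM10 K12 replicate 1 (0.0835), UM10 K12 replicate 2 (0.0701) or UM10 csgA(-) replicate 1 (0.0639). Of 18 tested regulators of chemoreceptor expression, hlh-2, a bHLH factor, was the 1 gene called, beside 5.07% of all genes called higher. Its log2 fold change was 1.66 (edgeR adjusted p = 0.0281), with 14.2 and 12.1 CPM in UM10 csgA(-), 15.6 and 21.9 in UM10 K12, and 5.43 and 4.54 in N2. It was lost without N2 replicate 1 (0.153), N2 replicate 2 (0.0947), UM10 K12 replicate 1 (0.0705) or UM10 K12 replicate 2 (0.08).

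Germline and intestinal markers differed between UM10 and N2 in the same libraries. In both UM10 groups against N2, all 8 germline genes had a positive log2 fold change, beside 48.2% of all genes, and 4 were called higher (cey-2, cey-3, mex-5 and puf-5), beside 5.07% of all genes, none of which was called without N2 replicate 1 (edgeR adjusted p = 0.0801 to 0.231). Their sum was 3714 and 2804 CPM in UM10 csgA(-), 2476 and 3468 in UM10 K12, and 696 and 1554 in N2. All 7 intestinal genes were negative and act-5, an intestinal actin, was called lower, beside 5.25% of all genes, but not without N2 replicate 1 (edgeR adjusted p = 0.102), UM10 K12 replicate 1 (0.0774) or UM10 K12 replicate 2 (0.0573). The intestinal sum was 1130 and 1015 CPM in UM10 csgA(-), 2120 and 2476 in UM10 K12, and 8318 and 3305 in N2. For 6 body wall muscle genes the sum was 9732 and 9525 CPM in UM10 csgA(-), 4304 and 5739 in UM10 K12, and 10080 and 10130 in N2, so UM10 K12 was the low group. The sum of 31 sperm genes was 1722 and 1451 CPM in UM10 csgA(-), 821 and 1137 in UM10 K12, and 1502 and 1223 in N2, where again UM10 K12 was below the other groups. For 4 amphid sheath glia genes it was 15.7 and 32.7 CPM in UM10 csgA(-), 16.5 and 42.1 in UM10 K12, and 30.2 and 30.6 in N2, so the groups overlapped. The part of tissue makeup in the receptor differences was not tested.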

How the data were processed

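The authors deposited unnormalized read counts per gene for 6 libraries, in the layout of STAR's gene counts. STAR 2.7.5, DESeq2 1.28.1 and the genome build WBcel235 are named in the submitters' processing notes, and the annotation release is not given in the sources used here. The unstranded counts were used, and summary lines (7.85% to 8.72% of reads) were left out. Reads mapping to several places were 2.57% to 4.05%, so near-identical copies can be under-counted. Symbols and coordinates come from the Ensembl annotation of WBcel235. The edgeR 4.0.16 quasi-likelihood test ran on all 6 libraries with TMM factors and filterByExpr (15331 genes), tested on simulated data, with Benjamini-Hochberg adjustment over all genes and a call at 0.05. Pooled ratios carry exact 95% intervals. Alternatives used other scaling, DESeq2 1.42.0, no filter, a replicate block, left-out libraries, the stranded columns and the file-name foods. The members and lists were chosen with earlier results of these data known. Named genes were the 10 highest by RPKM, the called genes, the 3 smallest p where none was called, 10 characterised receptors, and the genes nearest the threshold.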

Additional observations from a re-analysis of the deposited data

How the results depend on the processing

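Counts of called receptor genes depended on the libraries. Leaving out each library in turn gave 0 to 0 calls in UM10 K12 against N2, 2 to 4 in UM10 csgA(-) against N2, 0 to 4 for both UM10 groups and 0 to 1 between foods; a group left with 1 library was assumed to vary like the others. With the foods taken from the file names, UM10 K12 against N2 gave 6 calls and UM10 csgA(-) against N2 gave 0. Without a filter on low counts there was 1 call in UM10 K12 against N2 and 2 between foods, where DESeq2's test gave 2 and the second stranded column 1. The second stranded column gave 3 calls for both UM10 groups. The replicate number as a block gave 0 in UM10 K12 against N2, 6 in UM10 csgA(-) against N2, 6 for both UM10 groups and 2 between foods. Same-numbered libraries deviated together with r = 0.354 between N2 and UM10 K12, -0.0789 between N2 and UM10 csgA(-), and 0.0933 between the UM10 groups. Whether the replicate numbers pair the libraries was not tested further. Over all genes, calls in UM10 K12 against N2 were 421 as reported, 276 with upper-quartile factors, 1167 with DESeq2's test, 1333 without a filter and 845 with the block. In UM10 csgA(-) against N2 they were 1388, against 2565, 2705 and 2434 with the last 3 of these, and for both UM10 groups 1582, against 2661, 2831 and 2418. Between foods they were 0, against 241, 470 and 165. Leaving out 1 library gave 2 to 579 calls in UM10 K12 against N2, 157 to 1544 in UM10 csgA(-) against N2, 49 to 1774 for both UM10 groups and 0 to 78 between foods. Upper-quartile factors moved the median log2 fold change of all genes to -0.23 in UM10 K12 against N2. No called fold change of a receptor gene changed sign under the other alternatives; with the file-name foods the values of the UM10 groups are exchanged, so that srh-237 in UM10 csgA(-) against N2 is 0.34 in place of -4.52. The receptor genes' median for both UM10 groups, -0.44 as reported, was 0.16 without N2 replicate 1 and 0.06 without a filter, and in UM10 K12 against N2, 0.15 as reported, it was -0.03 with the block. The causes were not tested. Depth limits the rest: only 15 of the 31 genes reached 20 counts in 2 libraries.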

Other observations

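Other chemoreceptor superfamilies under the same detection rule were read from the same edgeR fit (quasi-likelihood test, Benjamini-Hochberg). Of all genes, 2.75% were called in UM10 K12 against N2 and 9.05% in UM10 csgA(-) against N2. For both UM10 groups against N2 the share was 10.3% (5.07% higher, 5.25% lower), and between foods it was 0%. Of 11 tested Sra superfamily genes 0 were called in any comparison by edgeR or DESeq2. An unadjusted p under 0.05 was found for 1, in UM10 K12 against N2, beside 19.1% of all genes. Of 11 tested Srg superfamily genes, srg-31 was higher in both UM10 groups against N2 (log2 fold change 4.33) and srx-58 was lower (-2.38). Of 14 tested genes of the srbc, srsx, srw, srz and srr families, srw-145 was called higher in that comparison at 3.12. It had 0.0724 and 0.0865 CPM in N2 and met the detection rule through UM10 libraries only. Its excess over N2 is therefore not evidence of a direction. None of these 3 was called without N2 replicate 1 (edgeR adjusted p = 0.0999, 0.0848 and 0.225), srg-31 was also lost without N2 replicate 2 (0.0676), and srw-145 on leaving out any 1 library (0.065 to 0.225).

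Symbols of the 5 families that RefSeq annotates as pseudogenes were kept apart from the 31 genes, and 2 of them met the count rule. The pseudogene str-183 had 33 and 31 counts in UM10 csgA(-), 5 and 9 in UM10 K12, and 2 and 2 in N2. It reached 10 counts in UM10 csgA(-) only, so it was selected through the group where it is high. Its excess there is therefore not evidence of a direction. Its log2 fold change was 3.46 in UM10 csgA(-) against N2 (SE 0.86, edgeR adjusted p = 0.0316), lost on leaving out any 1 library (0.0598 to 0.155). The pseudogene srd-14 had 6.29 and 1.92 CPM in UM10 csgA(-), 3.81 and 2.76 in UM10 K12, and 2.17 and 0.908 in N2.

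A pair of family genes, picked after their counts were seen, had reads in 1 library only and so did not meet the rule. UM10 csgA(-) replicate 2 held all 14 counts of srh-286, and UM10 csgA(-) replicate 1 held all 11 counts of srd-43.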
